A study of Mus musculus with 5 samples.

Results

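Alveolar type 1 cells are the thin, flat epithelial cells that cover most of the gas exchange surface of the lung, and the 8 genes described here, Ager, Akap5, Cav1, Hopx, Clic5, Aqp5, Pdpn and Emp2, are used as their markers. They were taken by symbol from the gene table of the array platform, and 7 of the 8 had a feature there and values on at least 4 of 5 arrays, each by a single feature. Emp2, a small tetraspan membrane protein, had no entry in that table and was not analysed here. The 7 stand among 10081 genes and unnamed features tested, 9039 of them with a symbol.

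The study hybridised amplified lung RNA of 129svJ mice, an inbred strain, to 2-colour arrays. Bleomycin-treated mice 1 to 5, which were 5 separate animals, had 1 array each, and every array carried the same pool of amplified lung RNA of control 129svJ mice in its other channel. Bleomycin is a DNA-cleaving antitumour antibiotic that injures the lung and is used to provoke fibrosis in mice. Its dose and route, the time after treatment, the age and sex of the mice and the size of the pool are not given.

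Each value is the log ratio of the 2 channels of an array, taken as log2 and centred on the median of that array. No source names the log base, and with natural logarithms the folds would be larger. The side of 0 does not say which channel was brighter. The labels name the mouse before the pool, but no dyes are given, and macrophage markers, which injured lung usually gains, lay below 0 in 14 of 17 cases. Values are therefore described as above or below 0, with no statement on whether mouse or pool held more of an RNA. The arrays shared 1 orientation, as every pair correlated positively across genes, which are not independent replicates (Pearson's r from 0.732 to 0.857). A ratio carries no level, so how strongly a gene is expressed cannot be read from it, and the presence of lung markers at their usual level cannot be checked. In whole lung, a difference in the number of type 1 cells and a difference in RNA per type 1 cell cannot be told apart.

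Type 1 cells arise from type 2 cells after injury, as the cuboidal surfactant-producing cells flatten and switch on a new set of membrane and cytoskeletal genes. Their markers do different things. Ager is the multiligand receptor RAGE, Akap5 anchors protein kinase A and calcineurin at membranes, and Cav1 is the coat protein of the caveolae that stud these cells. Hopx is a homeodomain protein that binds no DNA itself, Clic5 belongs to the chloride intracellular channel family and is found with actin and ezrin, Aqp5 is a water channel, and Pdpn is the mucin-like surface protein podoplanin. Several are also made elsewhere in lung, Cav1 in endothelium, fat and muscle, Pdpn in lymphatic endothelium and mesothelium, and Aqp5 in airway glands.

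The 7 measured genes fell into 2 sets. Ager, Akap5, Cav1 and Hopx lay above 0 on every array that measured them, with mean ratios between 1.05 and 1.46, which is 2.07-fold to 2.75-fold. Clic5, Aqp5 and Pdpn stood within 0.13 of 0 on average, and none of these 3 passed the test. Genes were tested with limma against 0, and an adjusted p under 0.05 over all 10081 is called past the threshold. By that rule 4 members lay above 0 and 0 below. Of all genes and unnamed features, 25.8% were called above 0, 23.9% below and 49.6% on either side. The count of 4 in 7 is thus near the share called on either side. It is higher than the share called above 0, in a set of only 7. Of the 7, 4 lay above 0 by at least 2-fold and 0 below, against 3.24% and 2.35% of all genes. The other 3 lay at the centre, where 41.2%, 60.1% and 66.7% of genes had higher means than Clic5, Aqp5 and Pdpn. The median of the 7 was 1.05 against −0.0066 for all genes.

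**Figure D1:**
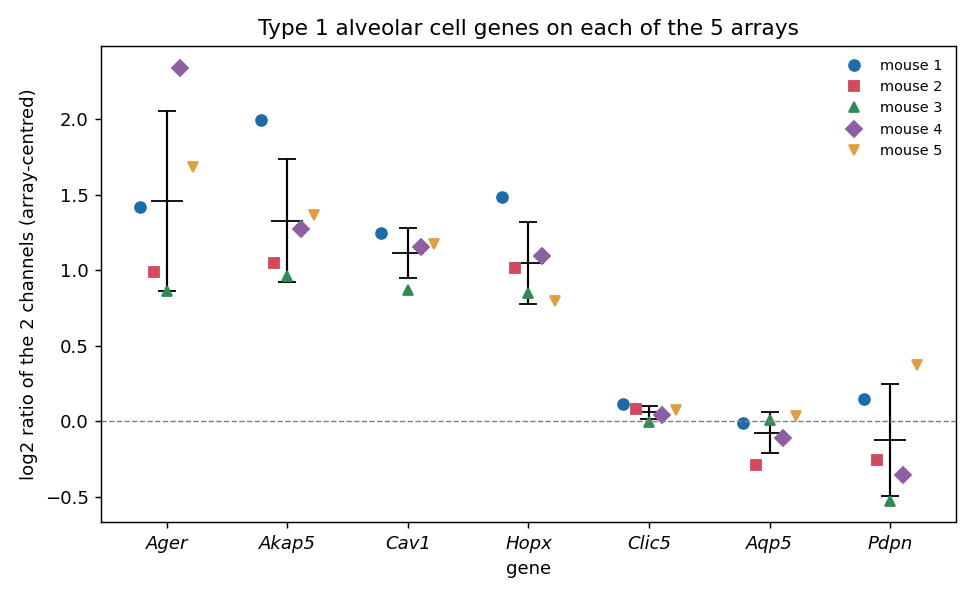
Log2 ratio of the 2 channels (vertical axis, array-centred) for the 7 measured type 1 alveolar genes, with a symbol for each mouse, the mean as a bar and the SD as whiskers (n = 5, 4 for Cav1). Ager, Akap5, Cav1 and Hopx sit above 0 in every mouse measured, and Clic5, Aqp5 and Pdpn sit around 0.

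Among surface receptors, Ager had log2 ratios of 1.42, 0.99, 0.86, 2.34 and 1.69 in mice 1 to 5. All lay above 0, and mouse 4 stood highest. The mean was 1.46 ± 0.60 (SD, n = 5; limma adjusted p = 0.00131), the farthest from 0 of the 7, and 1.03% of all genes had a higher mean. Its spread between mice was also wide, with 1.92% of genes having a larger SD. Ager binds ligands of the S100 and HMGB families and amyloid precursor fragments.

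The anchoring protein Akap5 had log2 ratios of 2.00, 1.05, 0.96, 1.27 and 1.37 in mice 1 to 5. Mouse 1 was highest, and the other 4 lay within 0.96 to 1.37. The mean was 1.33 ± 0.41 (SD, n = 5; limma adjusted p = 0.000441), a 2.51-fold difference.

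The caveola protein Cav1 had log2 ratios of 1.25, 0.87, 1.15 and 1.18 in mice 1, 3, 4 and 5, and no value for mouse 2. These 4 values were close together, and the fit used only them. The mean was 1.11 ± 0.17 (SD, n = 4; limma adjusted p = 0.00017), a 2.16-fold difference, and 46.5% of genes had a larger SD.

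The homeodomain protein Hopx had log2 ratios of 1.49, 1.02, 0.85, 1.09 and 0.80 in mice 1 to 5. All lay above 0, with mouse 1 highest. The mean was 1.05 ± 0.27 (SD, n = 5; limma adjusted p = 0.000284), a 2.07-fold difference.

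The remaining 3 genes did not pass. Clic5 had log2 ratios of 0.11, 0.08, −0.003, 0.04 and 0.07 in mice 1 to 5, a mean of 0.06 ± 0.04 (SD, n = 5; limma adjusted p = 0.317). Its values were among the most alike of all, as 97.6% of genes had a larger SD. The 95% interval of its mean, from limma's moderated standard error, ran from −0.05 to 0.17. That leaves out a mean ratio of 2-fold on either side of 0, with the pool taken as free of error. Without intensities, a dim feature with ratios near 0 cannot be told apart from an unchanged gene.

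The water channel Aqp5 had log2 ratios of −0.01, −0.29, 0.01, −0.11 and 0.03 in mice 1 to 5. They straddled 0, and mouse 2 was lowest. The mean was −0.08 ± 0.13 (SD, n = 5; limma adjusted p = 0.352), with a 95% interval from −0.22 to 0.07. Podoplanin, Pdpn, had log2 ratios of 0.15, −0.26, −0.53, −0.36 and 0.37, with mice 1 and 5 above 0 and mice 2, 3 and 4 below. Its mean was −0.12 ± 0.37 (SD, n = 5; limma adjusted p = 0.463) with a 95% interval from −0.44 to 0.19, and 8.02% of genes had a larger SD. Pdpn was therefore near 0 on average but not alike between mice, unlike Clic5. These intervals cover the spread between the treated mice only.

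**Figure D2:**
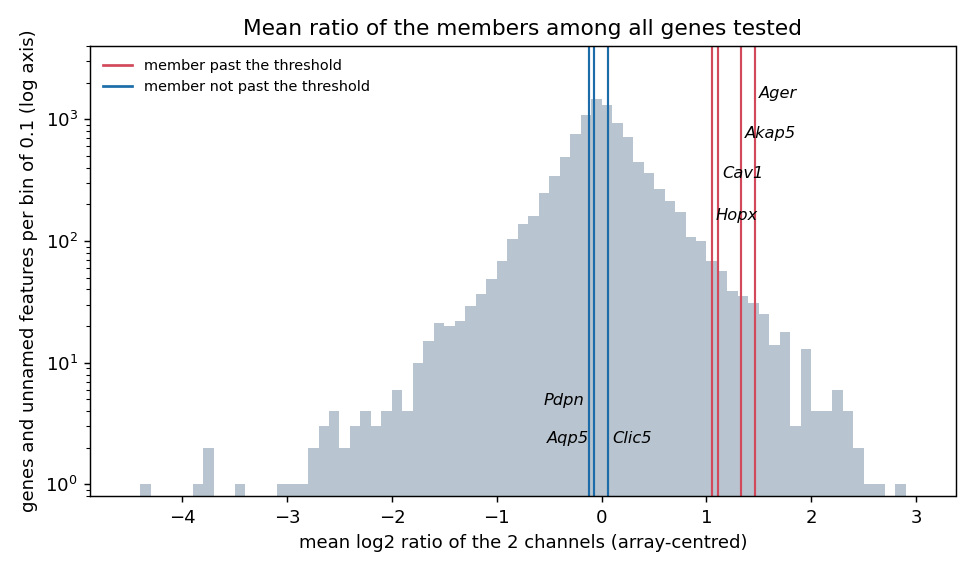
Number of genes and unnamed features (vertical log axis) by mean log2 ratio (horizontal axis, bins of 0.1) over all 10081 tested, with a line at each member's mean. The 4 members past the threshold lie in the upper tail between 1.05 and 1.46, and the other 3 lie at the centre.

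The order of the means was Ager, Akap5, Cav1, Hopx, Clic5, Aqp5 and Pdpn. The 6 neighbouring pairs were compared within arrays by an exact two-sided sign-flip test, with Benjamini-Hochberg adjustment over the 6. With 5 arrays this test cannot give a p under 0.0625, and the 4 arrays of Cav1 cannot give a p under 0.125. Only the step from Hopx to Clic5, 0.99 ± 0.25 (SD, n = 5 arrays), was clearly wider than its spread. Hopx lay above Clic5 on 5 of 5 arrays (exact p = 0.0625, adjusted p = 0.25). The 2 sets were read from these same values, so the step describes them and does not test them. Ager exceeded Akap5 by 0.13 ± 0.62 (SD, n = 5) and on 2 of 5 arrays, so the top pair has no settled order. Cav1 exceeded Hopx by 0.06 ± 0.25 (SD, n = 4), and Aqp5 exceeded Pdpn by 0.05 ± 0.35 (SD, n = 5), both less than the spread. Akap5 lay above Cav1 on 4 of 4 arrays, by 0.29 ± 0.31 (SD), and Clic5 above Aqp5 on 4 of 5 arrays, by 0.14 ± 0.15 (SD), both also within their spread.

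The limma test treats the pool as free of error, so a chance departure of the pool from other control mice counts as a difference. With the pool counted as 1 control mouse that varies like the treated mice, Cav1 passed (limma-based adjusted p = 0.0266), as did 2.98% of all genes above 0. Hopx, Akap5 and Ager then missed the threshold (adjusted p = 0.065, 0.0851 and 0.156).

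Mouse 3 had the lowest value of Ager, Akap5 and Cav1, and mouse 1 the highest of Akap5, Cav1 and Hopx. The mean of Ager, Akap5 and Hopx, which have values on every array, was 1.64, 1.02, 0.89, 1.57 and 1.28 in mice 1 to 5. The arrays also differed in overall spread, with a median absolute deviation of the ratios of 0.25 for mouse 1 and 0.159 for mouse 2. With all arrays scaled to the same deviation, mouse 3 was lowest for Ager, Akap5, Cav1 and Hopx. The highest then was mouse 4 for Ager, mouse 1 for Akap5, mouse 5 for Cav1 and mouse 2 for Hopx. The low place of mouse 3 thus did not depend on that scaling, whereas the high place of mouse 1 did for Cav1 and Hopx. A list of fat, heart and skeletal muscle markers also differed between arrays, with a mean of 0.43 in mouse 3 against −1.88, −1.35, −0.02 and −1.21 in mice 1, 2, 4 and 5. The skeletal muscle gene Tnnc2 had −5.50, −5.19, −0.035, −2.78 and −5.18 in mice 1 to 5, while Ucp1 of brown fat had 2.55, 2.25, 2.09, 1.68 and 1.34 and did not set mouse 3 apart. The part of that in the values of the members was not tested.

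Start sites of the genes above 0 and of Aqp5, a gene near 0, are shown so that the set that lay together can be read beside a member that did not. Each sequence is a RefSeq promoter of build GRCm38.p6, 250 bases before to 50 after the start, and the table held 9 promoters for the 7 measured genes. Cav1 and Hopx have 2 starts each, and the start printed is the one with motif matches. The start not shown held 0 matches in both genes. Capitals mark exact matches, on either strand, to GGGCGG (the GC box of SP and KLF factors), CAAGTG (a core of NKX2-1 sites) or TATAAA (the TATA box). GGAATG (TEAD) and TGAGTCA (AP-1) were searched too. The arrays did not measure promoters, and a match is no evidence of binding.
Ager, chr17:34597600-34597899, plus strand: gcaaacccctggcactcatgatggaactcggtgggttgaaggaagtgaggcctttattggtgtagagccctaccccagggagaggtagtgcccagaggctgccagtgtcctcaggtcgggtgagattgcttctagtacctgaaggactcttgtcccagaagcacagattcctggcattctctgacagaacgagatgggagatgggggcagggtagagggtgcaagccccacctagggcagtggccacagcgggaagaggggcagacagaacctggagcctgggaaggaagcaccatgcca
Akap5, chr12:76324641-76324940, plus strand: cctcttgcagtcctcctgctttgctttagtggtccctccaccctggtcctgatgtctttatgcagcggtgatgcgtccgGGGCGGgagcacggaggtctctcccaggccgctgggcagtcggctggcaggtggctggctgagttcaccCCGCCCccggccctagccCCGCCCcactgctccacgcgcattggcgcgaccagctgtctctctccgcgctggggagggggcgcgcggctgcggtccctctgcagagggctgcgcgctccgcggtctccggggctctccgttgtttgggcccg
Cav1, chr6:17306085-17306384, plus strand, the upstream of 2 starts: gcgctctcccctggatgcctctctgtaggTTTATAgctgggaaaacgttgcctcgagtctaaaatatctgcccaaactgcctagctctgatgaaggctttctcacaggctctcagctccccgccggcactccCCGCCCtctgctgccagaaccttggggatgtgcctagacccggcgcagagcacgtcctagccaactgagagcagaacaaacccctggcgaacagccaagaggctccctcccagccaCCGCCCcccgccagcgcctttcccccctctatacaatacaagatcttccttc
Hopx, chr5:77095218-77095517, minus strand, the downstream of 2 starts: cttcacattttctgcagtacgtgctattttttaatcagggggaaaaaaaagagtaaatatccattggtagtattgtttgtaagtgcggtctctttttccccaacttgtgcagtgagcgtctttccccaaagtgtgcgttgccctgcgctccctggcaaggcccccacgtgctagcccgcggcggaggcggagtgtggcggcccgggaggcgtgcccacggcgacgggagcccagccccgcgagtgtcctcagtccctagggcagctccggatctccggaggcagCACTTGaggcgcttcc
Aqp5, chr15:99590778-99591077, plus strand: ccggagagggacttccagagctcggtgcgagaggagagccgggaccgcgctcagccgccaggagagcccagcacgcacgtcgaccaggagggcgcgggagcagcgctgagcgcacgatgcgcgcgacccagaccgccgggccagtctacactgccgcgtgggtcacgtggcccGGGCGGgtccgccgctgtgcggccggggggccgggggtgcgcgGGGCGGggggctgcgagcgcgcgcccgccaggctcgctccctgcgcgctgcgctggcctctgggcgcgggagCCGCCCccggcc
The GC box was found in 5 of the 9 promoters, those of Akap5, Cav1, Clic5, Aqp5 and Pdpn, and in 35.7% of all 32851 promoters. It was thus in genes of both sets, those above 0 and those near 0. CAAGTG was found in 1, the Hopx promoter above, and in 13.6% of all promoters. TATAAA was found in 1, that of Cav1, also against 13.6% of all. The Cav1 match lay near the upstream end of the printed sequence, far from the start site. GGAATG and TGAGTCA were found in 0 of the 9, against 14.7% and 5.2% of all promoters. The promoter of Ager held none of these letters.

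Other listed genes enriched in type 1 cells lay above 0 more often than below. That list was chosen with earlier results of these data known, so it is no independent support for the members. Of 40 listed, 27 were measured, of which 13 lay above 0 past the threshold, 1 below, and 13 did not pass, against 25.8% above and 23.9% below for all genes. Of these 27, 7 lay above 0 by at least 2-fold and 0 below, against 3.24% and 2.35% of all genes. The list median was 0.30, lower than the 1.05 of the members. That median of the members is the value of Hopx, and the next gene below it is Clic5 at 0.06. By the list mean, averaged over arrays, the lists lay closer, at 0.59 against 0.67 for the members. With the pool counted as 1 control mouse, 5 passed, namely Sema3e, Mal2, Timp3, Scnn1b and Limch1.

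Mal2, a protein of apical membrane transport, had log2 ratios of 2.18, 1.70, 1.24, 1.84 and 1.92 in mice 1 to 5. All lay above 0, and mouse 3 was lowest. Its mean was 1.77 ± 0.35 (SD, n = 5; limma adjusted p = 7.91e-05). The guidance ligand Sema3e averaged 1.60 ± 0.27 (SD, n = 5). The claudin Cldn18, a tight junction protein of alveolar epithelium shared with type 2 cells, averaged 1.43 ± 0.40. With features on at least 3 arrays kept, its mean was 0.94 (adjusted p = 0.00286), under 2-fold. The sodium channel subunit Scnn1b averaged 1.46 ± 0.33. Its partner Scnn1a averaged 0.30 ± 0.20 and passed (limma adjusted p = 0.0196), but not without mouse 1, 3, 4 or 5 (adjusted p from 0.054 to 0.0644).

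Some familiar markers of the cell type did not pass. Vegfa, the endothelial growth factor that type 1 cells release, had log2 ratios of 1.84, 0.77, −0.57, 0.72 and 1.17 in mice 1 to 5. Mouse 3 alone lay below 0, and the mean of 0.78 ± 0.88 missed the threshold (SD, n = 5; limma adjusted p = 0.0646). Without mouse 3 its mean was 1.12 and passed (adjusted p = 0.00654), as it did with all arrays scaled to the same deviation (adjusted p = 0.0475). The simple-epithelium keratin Krt7 averaged −0.11 ± 0.09 (limma adjusted p = 0.123). The single gene below 0 past the threshold was S100a14, a calcium-binding protein, at −0.95 ± 0.26 (SD, n = 4; limma adjusted p = 0.00093).

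**Figure D3:**
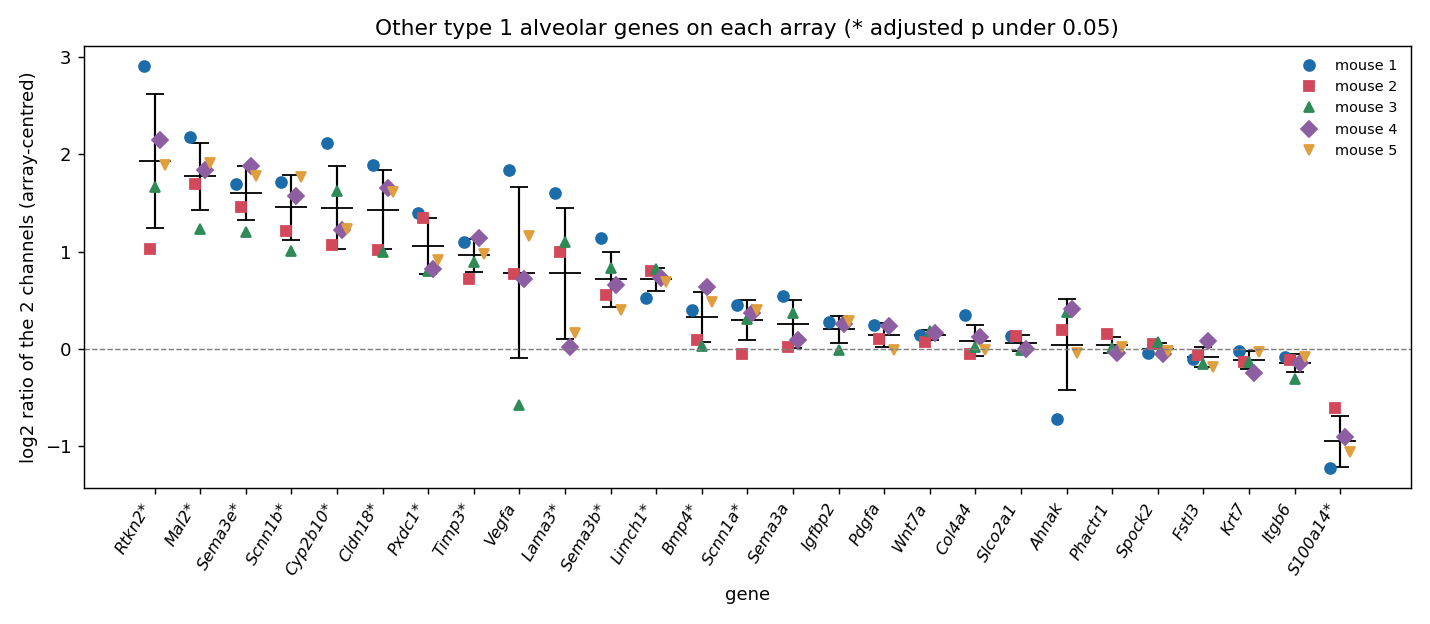
Log2 ratio of the 2 channels (vertical axis, array-centred) for the 27 other measured type 1 alveolar genes, ordered by mean, with a symbol per mouse, the mean as a bar and the SD as whiskers. Asterisks mark genes past the threshold, 13 above 0 and S100a14 below 0.

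Genes that belong to the same families as the members, or work with them, were counted by the same threshold. Around Cav1, 3 of 9 measured genes of caveolae lay above 0, 2 below, and 4 did not pass, with 0 at least 2-fold. These counts are near the shares of all genes, 25.8% above and 23.9% below. The receptor Ror1, at −0.16, lost its call whichever mouse was left out (adjusted p from 0.0521 to 0.105) and without centring (adjusted p = 0.0611), which leaves 1 gene below 0. The membrane raft protein Flot1, at 0.53, lost it without mouse 3, 4 or 5 (adjusted p = 0.0591, 0.0707 and 0.102). Cav2, which assembles with Cav1 into the coat, averaged 0.73 ± 0.21 (SD, n = 5; limma adjusted p = 0.00055), above 0 in all mice. Cav3, the muscle caveolin, averaged −0.70 ± 0.25 (SD, n = 4; limma adjusted p = 0.0027), below 0 in all 4 mice measured.

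Of the family of Emp2, which was not analysed here, 4 relatives were measured and all passed, against 49.6% of all genes and unnamed features. Of the 4, 3 lay above 0 and 1 below, against 25.8% and 23.9% of all. Emp1 had log2 ratios of 1.58, 2.52, 1.99, 2.00 and 1.74 in mice 1 to 5, a mean of 1.96 ± 0.36 (SD, n = 5; limma adjusted p = 5.99e-05). Emp3 had −1.85, −1.21, −1.08, −1.13 and −1.32, a mean of −1.32 ± 0.31 (limma adjusted p = 0.000176). These 2 close relatives lay on opposite sides of 0 with no overlap, and their values say nothing of Emp2 itself. The junction protein Perp averaged 0.44 and Tmem47 averaged 0.74, both above 0 in 5 of 5 mice.

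Relatives of Clic5 divided as well. Of 3 measured, 2 lay above 0 and 1 below, against 25.8% and 23.9% of all genes. Clic4, which is abundant in endothelium, had log2 ratios of 1.14, 1.61, 1.12, 1.72 and 1.30 in mice 1 to 5, a mean of 1.38 ± 0.28 (SD, n = 5; limma adjusted p = 9.87e-05). Its lowest value was well above the highest of Clic5, 0.11. Clic3 averaged 0.32 and Clic1 averaged −0.38. Both passed (limma adjusted p = 0.0151 and 0.0351), Clic3 not without mouse 5 (adjusted p = 0.0513), and Clic1 not without mouse 1, 2, 3 or 4 (adjusted p from 0.0511 to 0.103).

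Clic5 and Pdpn both connect to actin through ezrin, radixin and moesin. Of 6 measured genes of that group, 4 lay above 0, 0 below, and 2 did not pass, against 25.8% above and 23.9% below for all genes. Without mouse 4, 1 was called below. Radixin, Rdx, had log2 ratios of 1.56, 1.92, 1.89, 1.84 and 1.63 in mice 1 to 5, a mean of 1.77 ± 0.16 (SD, n = 5; limma adjusted p = 1.96e-05), and ezrin, Ezr, averaged 0.40 ± 0.22 (limma adjusted p = 0.00851). Rdx thus stood well away from 0, at 3.402-fold, while Clic5 and Pdpn did not pass.

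Beside Akap5, 7 of 17 genes of other anchoring proteins and their enzyme partners lay above 0 and 2 below, against 25.8% and 23.9% of all genes, with a list median of 0.17 and 0 at least 2-fold. The calcineurin subunit Ppp3ca, a partner that Akap5 binds, averaged 0.80 ± 0.23 (SD, n = 5; limma adjusted p = 0.000525). The catalytic subunit of protein kinase A, Prkaca, averaged −0.52 ± 0.17 and its regulatory subunit Prkar1a −0.49 ± 0.20. Akap13, at 0.50 ± 0.07, had the highest mean of the other measured anchoring proteins.

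Of 10 measured genes of Ager's ligands, 3 lay above 0 and 4 below, counts not far from the 25.8% and 23.9% of all genes. The adaptor of Ager, Diaph1, was listed with them but not measured on enough arrays to be tested. App, the amyloid precursor, averaged 1.99 ± 0.44 and the chromatin protein Hmgb1 1.46 ± 0.51, above 0 in 5 of 5 mice. S100a4 averaged −2.76 ± 0.73 and S100a6 −1.32 ± 0.35, below 0 in 5 of 5 mice (SD, n = 5 each).

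Of 15 measured genes of water and sodium transport, which include aquaporins other than Aqp5, 6 lay above 0, 1 below, and 8 did not pass. These counts stand against 25.8% above and 23.9% below for all genes. The 6 include Scnn1a and Scnn1b, which were already counted with the other type 1 genes. Among the other aquaporins, Aqp1 and Aqp9 passed above 0, while Aqp3, Aqp4, Aqp8 and Aqp11 did not pass. Aqp1, the water channel of capillary endothelium, averaged 0.76 ± 0.28 (SD, n = 5; limma adjusted p = 0.0012), above 0 in 5 of 5 mice. Sgk1, a kinase that raises sodium channel activity, averaged 0.96 ± 0.32, and Fxyd5, a regulator of the sodium pump, −1.17 ± 0.29.

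**Figure D4:**
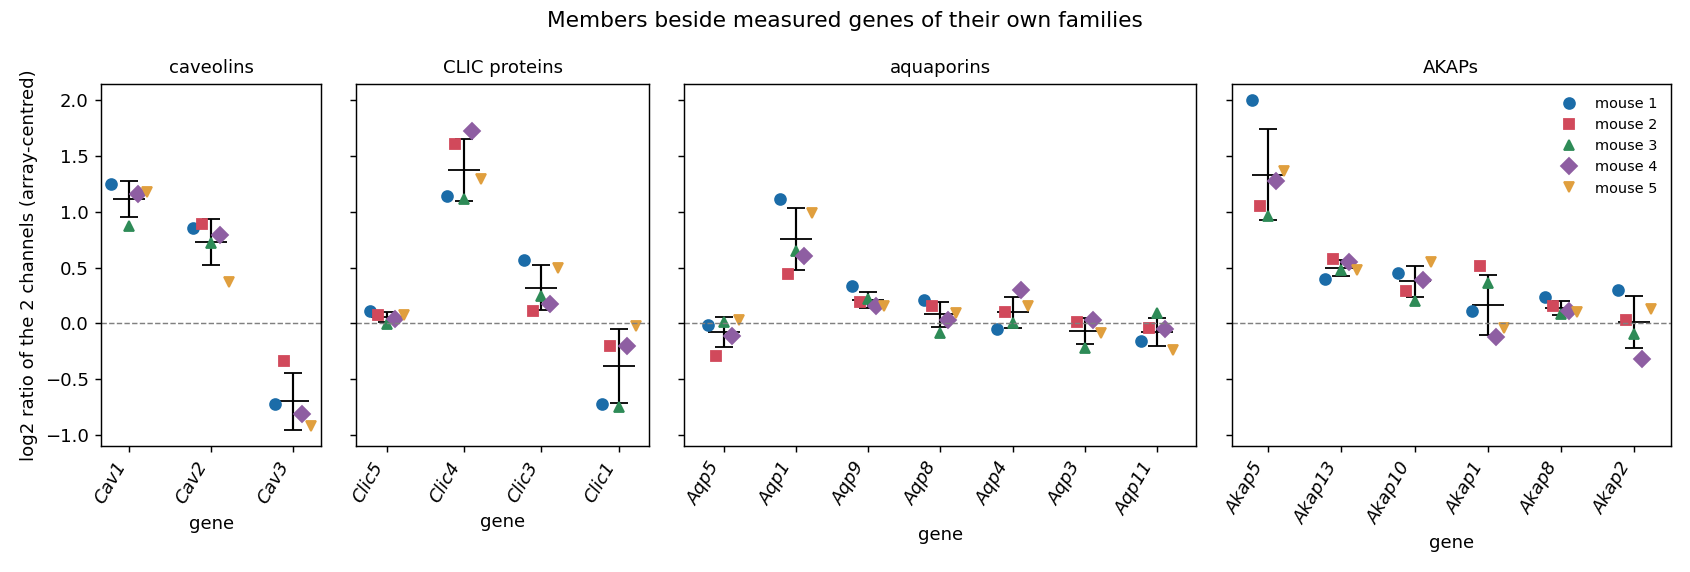
Log2 ratio of the 2 channels (vertical axis, array-centred) for Cav1, Clic5, Aqp5 and Akap5, each first in its panel, beside the measured genes of its own family, with a symbol per mouse, the mean as a bar and the SD as whiskers. Cav2 lies on the side of Cav1 and Cav3 on the other, and Clic4 lies far above Clic5.

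Of 19 measured transcription factors and co-regulators of distal lung epithelium, the group to which Hopx belongs by function, 6 lay above 0 and 5 below, which is near the 25.8% and 23.9% of all genes. The 5 below became 1 without mouse 3 or 5, and 3 without mouse 1, 2 or 4. Foxa1 averaged 1.29 ± 0.23 (SD, n = 5; limma adjusted p = 7.72e-05). Gata6, which acts in the formation of type 1 cells, averaged 0.95 ± 0.10 (SD, n = 4; limma adjusted p = 0.000144), above 0 in 4 of 4 mice. Foxp4 lay below, at −0.51 ± 0.17.

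Lists of other cell types were read beside the members, since type 1 cells share the alveolar wall with them and several members are made in more than 1 cell type. All their counts stand against 25.8% of all genes above 0 and 23.9% below. Type 2 markers had 10 of 20 above 0 and 2 below, with a median of 0.42. The surfactant protein Sftpa1 averaged 2.41 ± 0.30 and the phosphate transporter Slc34a2 1.80 ± 0.43 (n = 4), while the chemokine Cxcl15 averaged −0.91 ± 0.26. Club and ciliated cell markers had 11 of 14 above 0 and 1 below, with a median of 0.69. The 1 below was the ciliated cell factor Foxj1, at −0.32 ± 0.09 (SD, n = 5; limma adjusted p = 0.00276), while Tppp3, also a ciliated marker, passed above 0. Markers of epithelial cells in transition after alveolar injury, the state between type 2 and type 1, had 9 of 18 below 0 and 3 above, with a median of −0.42, and the 3 above became 1 without mouse 2 or 3. The cornified envelope gene Sprr1a averaged −4.31 ± 0.25, the cell cycle inhibitor Cdkn1a −1.61 ± 0.13 and the keratin Krt18 −1.54 ± 0.23.

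Cav1 is also made in quantity by capillary endothelium. Of 25 measured endothelial markers, 16 lay above 0 and 4 below, against 25.8% and 23.9% of all genes, with a median of 0.40. Pecam1 averaged 2.45 ± 0.30 and Tmem100 2.32 ± 0.29, both in capillary endothelium, and Ly6c1 −1.54 ± 0.16. Of 7 lymphatic and mesothelial markers, cells that also express Pdpn, 3 lay above 0 and 1 below (2 without mouse 1). The 3 above became 2 without mouse 1, 2, 4 or 5, and the list median was 0.14. Those above were Gpm6a at 2.27 ± 0.37 and the lymphatic markers Lyve1 at 1.56 ± 0.41 and Mmrn1 at 0.19 ± 0.14. Flt4, also a lymphatic marker, lay below, at −0.54 ± 0.13. Macrophage markers had 1 of 17 above 0 and 14 below, with a median of −0.93. Markers of fat, heart and skeletal muscle, which cover other tissues that express Cav1 or Hopx, had 4 of 16 above 0 and 7 below, or 3 below without mouse 2 or 5. The cardiac myosin Myh6 averaged 1.94 ± 0.39 and the brown fat protein Ucp1 1.98 ± 0.48, whereas the skeletal troponin Tnnc2 averaged −3.74 ± 2.34 (SD, n = 5). Tnnc2 missed the threshold with no moderation of the variance (limma adjusted p = 0.0567). The calcium pump Atp2a1 of fast muscle averaged −2.91, with values from −4.42 to −1.38. The part of these other cells in the ratios of Cav1, Hopx and Pdpn was not tested.

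**Figure D5:**
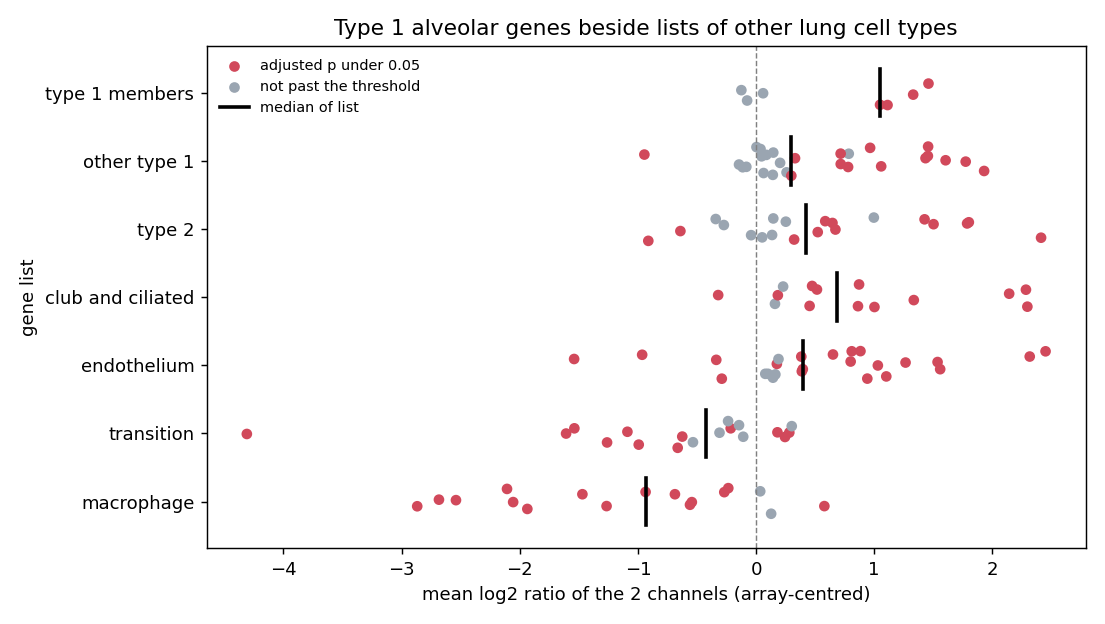
Mean log2 ratio of each measured gene (horizontal axis, array-centred) by gene list, the type 1 members on top, with red points past the threshold, grey points not, and a black bar at the list median. Of the 7 lists drawn, the members have the highest median, 1.05, and macrophage markers the lowest, −0.93. The rank of the members holds for the median only. By the list mean, averaged over arrays, club and ciliated markers stood higher, at 0.89 against 0.67 for the members.

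The genes whose 5 values lay nearest to the average profile of the 6 members measured on every array were sought among 7431 genes with values on all 5 arrays, by Euclidean distance. That profile was 0.86, 0.43, 0.36, 0.71 and 0.72 in mice 1 to 5. The nearest was Rnls, the flavoprotein renalase, at a distance of 0.127, with 0.92, 0.38, 0.41, 0.73 and 0.81. Next came Ott at 0.163, the immunophilin Fkbp1a at 0.184, the collagenase Mmp13 at 0.196 and the aminopeptidase Rnpep at 0.201. Since the profile averages genes near 1 with genes near 0, it matches no single member.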

How the data were processed

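Per the labels, each array compared amplified lung RNA of 1 bleomycin-treated mouse with amplified RNA pooled from control mice. The authors deposited 1 log ratio per feature and array, taken here as log2 values. The scanner, dyes, normalization and log base are not stated in the labels. Deposited medians lay between 0.011 and 0.026, so the values were already centred near 0. Arrays held 11350 to 12083 values of 17280 features. Scanner intensities were not used here, so the number of arrays limits the precision.

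Each array was centred on its median. Features with values on at least 4 arrays were kept (10702), symbols came from the platform annotation (14722 features with 1 symbol, 1 with several, 2557 with none), and 14445 were updated by gene identifier with RefSeq of GRCm38.p6. Features of 1 symbol were averaged. Mean ratios were set against 0 by the moderated test of limma 3.58.1, run in R 4.3.3 (lmFit, eBayes, two-sided, Benjamini-Hochberg). The procedure was also run on simulated independent noise with no shared pool error, which cannot show how an error of the pool affects the calls. A difference of at least 2-fold means a mean of at least 1 on the log2 scale beside an adjusted p under 0.05. Samples formed 1 group, and no batch labels are given.

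Members and lists were chosen with earlier results of these data known. Values were named for all members, for measured genes of the type 1, caveola, Emp, Clic and ezrin lists, for up to 3 genes past the threshold on each side in every other list, and for the 5 genes with the nearest profile. The other anchoring proteins and aquaporins in the plot of families were added after their values were seen. Alternatives were no centring, other array minimums, scaled arrays, 1 feature per symbol, no moderation, a 1.2-fold minimum, array weights, the pool as 1 control mouse, and leaving out each mouse.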

Additional observations from a re-analysis of the deposited data

Results flagged for a closer look

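None of the 7 members had a mouse that stood apart from the rest by Dixon's gap criterion at 95%, which compares the gap to the nearest value with the whole range. Of 99 genes named or eligible to be named, 2 did, and chance alone flags about 1 in 20 groups. The sodium channel subunit Scnn1a stood at −0.049 in mouse 2, against 0.31 to 0.45 in the other mice. S100a4, a ligand of Ager, stood at −1.485 in mouse 3, against −3.33 to −2.94 in the other mice.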

How the results depend on the processing

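Cav1 stayed above 0 and past the threshold in the 13 alternatives that gave it a value, with means from 1.05 to 1.19. It has no value among features on all 5 arrays. Ager, Akap5 and Hopx did so in 13 of 14, the exception being the pool counted as 1 control mouse. Clic5, Aqp5 and Pdpn missed the threshold in all 14 and changed side in 0. With the pool counted as 1 control mouse, 1 member passed in place of 4, 5 other type 1 genes in place of 13, 37 genes of all companion lists in place of 146, and 513 in place of 5002 of all tested. With a 1.2-fold minimum, 88 companion genes and 1847 in all passed. The 1.2-fold setting demands more than a mean unequal to 0, and the pool setting adds the spread of the pool to the error. Ahnak, listed as a type 1 gene, averaged 0.05, but its 2 features stood at −0.70 and 1.17. Its mean turned to −0.70 with features on all 5 arrays or with the most complete feature, and passed there (limma adjusted p = 0.00312 and 0.00354). Leaving out each mouse gave means from −0.044 (without mouse 4; −0.038 without mouse 3) to 0.24 (without mouse 1). The feature at 1.17 had values on 4 arrays and none in mouse 1, whose value of −0.72 came from the other feature alone. The leave-out means of Ahnak thus mix a change of mice with a change of features. Etv5 features also differed, at 0.14 and 0.94. No paired analysis was possible because all 5 arrays form 1 group. All arrays share the pool, and the labels name no dye swap, so its own departure and dye bias cannot be told apart from a difference. Without intensities, a ratio near 0 from a dim feature cannot be told apart from an unchanged gene.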

Other observations

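Among other genes listed for type 1 cells, 6 had a feature but values on fewer than 4 arrays and entered no test. The sodium channel subunit Scnn1g had values of 0.73, 0.25 and −0.04 in mice 1, 2 and 4. The RNA-binding protein Qk had values of 1.56 and 1.13 in mice 1 and 2, and Flrt3 a single value of 0.06 in mouse 3. Pmp22, Col4a3 and Cdkn2b had a value on 0 arrays.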
